A study of Mus musculus with 9 samples.

Results

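Psca and 4 Ly6 genes (Ly6a, Ly6c1, Ly6d and Ly6e) were followed through 9 RNA sequencing libraries of mouse bile duct organoids. The 5 genes were picked by their gene names in the per-library tables, out of 32137 genes listed there, and all 5 passed the filter on low counts that left 17011 genes for testing. Psca was picked for its passage difference, as the gene ranked 1 by the passage F statistic, which weighs that difference against the spread left over by group and passage. So its passage values, and those of the other 4 genes, are given as a description with no test. A fit with passage as a block uses that same left-over spread, so its p-values and intervals for Psca are partly set by the choice of the gene, and its estimates for Psca are given without a test. They encode small cysteine-rich proteins of the Ly6/uPAR family, most of which sit on the outer face of the cell membrane through a glycosylphosphatidylinositol (GPI) anchor. Psca, prostate stem cell antigen, is known from the epithelium of prostate, bladder and stomach. Ly6a encodes Sca-1, a surface marker of mouse blood stem cells that is also found on some epithelial cells. Ly6c1 is known from monocytes and endothelium, Ly6d from early B cells and stratified epithelium, and Ly6e is a broadly expressed gene that interferon can induce.

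The organoids came from 1 male mouse of mixed genetic background with the genotype Axin2CreERT2+/-; R26-LSL-tdTom+/-. In such cells a tamoxifen-activated Cre is made where the Wnt target gene Axin2 is active, and Cre switches on the red reporter tdTom for good. After 2 to 4 days of expansion, all organoids were differentiated for 11 days, and in the last 24 h all received 3 uM dexamethasone and 500 nM 4-hydroxytamoxifen. Rspo1, a secreted protein that strengthens Wnt signals, was added at 100 ng/ml or left out. Sorted cells made 3 groups of 3 libraries: tdTom-negative cells without Rspo1 (untreated), tdTom-negative cells with Rspo1 (Rspo1-negative) and tdTom-positive cells with Rspo1 (Rspo1-positive). Each group holds 1 library from passage 5, 1 from passage 6 and 1 from passage 10. There was no group of tdTom-positive cells without Rspo1, so between Rspo1-positive and untreated cells the reporter state and the treatment cannot be told apart. Since all cells came from 1 animal, p-values on group alone measure the spread between passages of its organoids. With passage as a block they measure how much group differences vary between those passages. Neither measures the spread between animals.

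Total counts per library ranged from 23423979 to 37351448, and the 5 genes together took 0.488% to 0.857% of them. All 16 biliary marker genes on the list used here were measured well enough to be tested, with summed levels of 6876 to 10580 FPKM (fragments per kilobase of transcript, scaled for depth). Some defining markers of other cells that carry Ly6c1 or Ly6a were at or near 0: the endothelial genes Cdh5 and Pecam1 had at most 0 and 6 counts in a library, and the leukocyte gene Ptprc at most 5. Other leukocyte genes were present. Csf1r, the receptor of a macrophage growth factor, had 1034 to 1949 counts and the integrin gene Itgam 172 to 502, and neither was called between groups in either fit. Cd52, a GPI-anchored surface peptide, had 65 to 543 counts and was lower in Rspo1-positive cells with passage as a block (edgeR adjusted p = 0.000551 against untreated and 0.00255 against Rspo1-negative cells; 0.0549 and 0.0588 on group alone). The summed FPKM of the 10 endothelial genes in the files was 5.15 to 6.79 in untreated, 11.4 to 14.1 in Rspo1-negative and 6.90 to 7.54 in Rspo1-positive cells, with Egfl7 alone at 4.70 to 13.7. That of the 8 leukocyte genes was 32.7 to 38.3, 24.1 to 38.7 and 14.5 to 22.9, in the same order of groups, and 1 of the 8 stayed at or under 3 counts in every library. The part of such cells in the differences below was not tested.

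All 5 genes lie on chromosome 15 (GRCm38, positions from GENCODE M21), in the Ly6 cluster. Psca is at 74714839 to 74717069 on the plus strand, Ly6d at 74762056 to 74763620 on the minus strand and Ly6e at 74955051 to 74959905 on the plus strand. Ly6a follows at 74994877 to 74998031 and Ly6c1 at 75044018 to 75048830, both on the minus strand. The stretch from Psca to Ly6c1 spans 334.0 kb and holds 18 protein-coding genes, 13 of them on the family list used here. Levels within this stretch were uneven. Only Ly6d, Ly6e, Ly6a and Ly6c1 had a mean above 100 FPKM over the 9 libraries, while 9 of the 18 genes had a mean below 1 FPKM. Psca itself had a mean of 28.3 FPKM, beside Lynx1 (29.5 FPKM), a Ly6-like modulator of acetylcholine receptors, and the neighbour Them6 (23.7 FPKM).

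Ordered by mean FPKM, Ly6a came first with 1933 ± 456 (SD, n = 9 libraries) and Ly6e second with 1761 ± 241. These 2 do not differ beyond their spread: Ly6a was above Ly6e in 6 of 9 libraries, and the ratio of Ly6a to Ly6e ran from 0.848 to 1.44. In CPM (read counts scaled for library size, not for gene length) Ly6e stood above Ly6a. Among all genes of a library Ly6a ranked between 8 and 25 by FPKM and Ly6e between 14 and 25. Both were thus among the most abundant transcripts of these cells. Ly6d came next with 1027 ± 314 FPKM, below Ly6e in 9 of 9 libraries, and Ly6c1 followed with 210 ± 61.7 FPKM, below Ly6d in 9 of 9. Psca was lowest in every library. Its FPKM ran from 2.66 to 110.7, a 41.6-fold range, against 2.07-fold for Ly6a, 2.80-fold for Ly6c1, 2.97-fold for Ly6d and 1.45-fold for Ly6e.

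**Figure D1:**
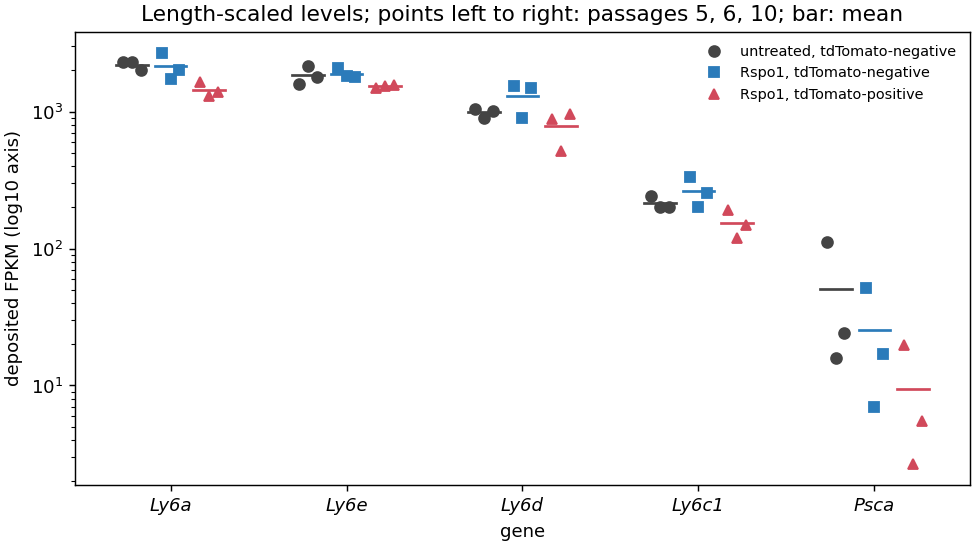
Deposited FPKM of each gene (log10 axis) in each library, by group, with passages 5, 6 and 10 from left to right within a group and a bar at the group mean. Psca is lowest and varies over a 41.6-fold range, while Ly6e stays within 1.45-fold.

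Psca counts were high at passage 5, lowest at passage 6 and in between at passage 10 in all 3 groups. In untreated cells its level was 96.5 CPM at passage 5, 13.8 at passage 6 and 21.3 at passage 10, from 3136, 412 and 739 reads. Rspo1-negative cells had 43.1, 5.97 and 14.7 CPM at the same passages, from 1620, 145 and 348 reads. In Rspo1-positive cells Psca stood at 17.3, 2.29 and 4.90 CPM, from 701, 68 and 175 reads. Within each passage the order was the same, with untreated cells highest and Rspo1-positive cells lowest, but across passages the groups overlap: Rspo1-positive cells at passage 5 lay above untreated cells at passage 6.

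The step of Psca from passage 5 to 6 was alike in the 3 groups, and the later steps less so. From passage 5 to 6 its level was 6.98-fold lower in untreated, 7.16-fold lower in Rspo1-negative and 7.35-fold lower in Rspo1-positive cells, a mean log2 ratio of -2.84 ± 0.038 (SD, n = 3 groups). A ratio in the same direction in 3 of 3 groups was common (18.3% of the 17011 genes were lower at passage 6 than at passage 5 in all groups), and a mean of 2 log2 units or more in either direction was found for 0.364% of genes. Passage 10 against passage 5 gave -1.84 ± 0.32, lower in 3 of 3 groups (4.53-, 2.92- and 3.49-fold; 27.2% of all genes were lower in all groups), and passage 10 against passage 6 gave 0.998 ± 0.34, higher in 3 of 3 groups (1.54-, 2.45- and 2.10-fold; 20.8% of all genes). By the passage F statistic Psca ranked 1 among the 17011 genes, which is how it was chosen, and Ly6c1 ranked 1889, Ly6d 2282, Ly6a 8285 and Ly6e 15792. In a fit of group and passage, 12% of all genes were called for passage. Of the variance of Psca's log2 CPM over the 9 libraries, 58.8% lay between passages, 40.5% between groups and 0.691% was left over. For the median gene these shares were 21.5%, 52.2% and 16.7%.

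The other 4 genes varied less with passage. From passage 5 to 6 the mean log2 ratio was -0.54 ± 0.26 (SD, n = 3 groups) for Ly6c1 and -0.57 ± 0.32 for Ly6d, both lower in 3 of 3 groups. For Ly6a it was -0.31 ± 0.30, lower in 2 of 3, and for Ly6e 0.11 ± 0.31, lower in 1 of 3. At passage 10 Ly6d was back at its passage 5 level (0.04 ± 0.11), while Ly6c1 (-0.31 ± 0.052) and Ly6a (-0.24 ± 0.10) were below it in 3 of 3 groups. Ly6e stood at 0.04 ± 0.17.

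**Figure D2:**
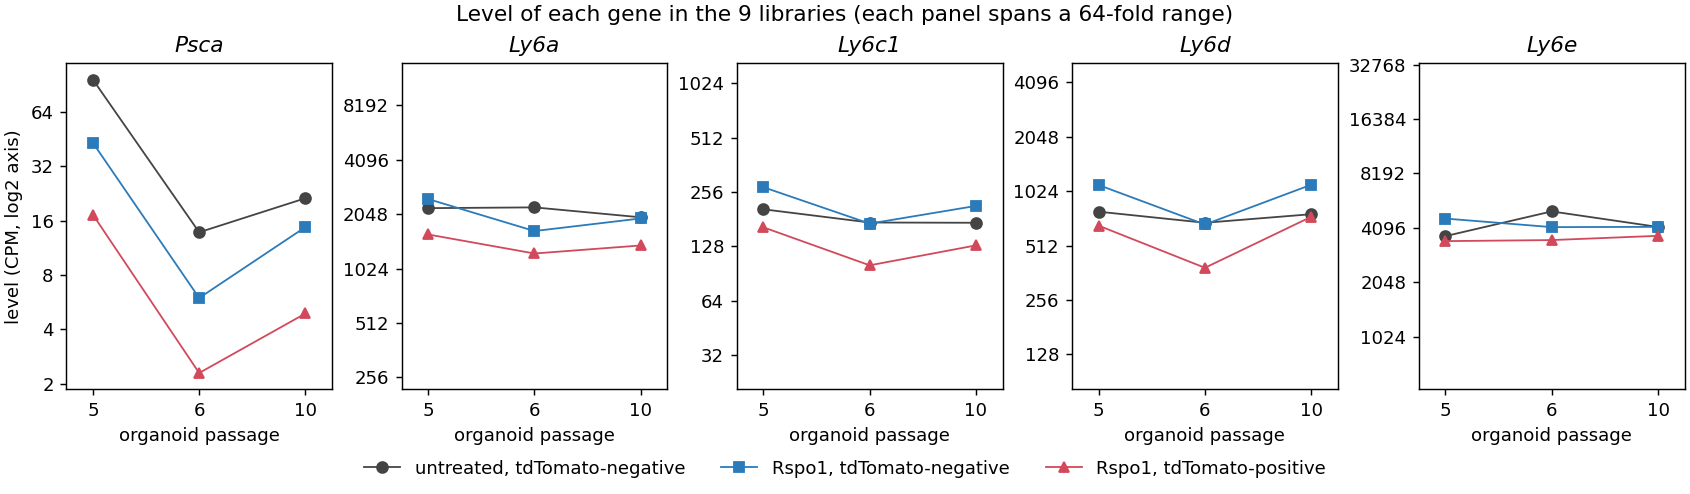
Level of each gene in CPM (log2 axis) in the 9 libraries, against passage 5, 6 and 10 in equal steps, with 1 line per group. Each panel spans the same 64-fold range, so that slopes compare: Psca is 6.98- to 7.35-fold lower at passage 6 than at passage 5, and the other lines are flatter.

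The first comparison asks how cells that had switched on the Axin2 reporter under Rspo1 differ from untreated cells. Psca was 5.58-fold lower at passage 5, 5.87-fold at passage 6 and 4.30-fold at passage 10. In edgeR's quasi-likelihood test on group alone its log2 change was -2.42 (SE 0.93, Benjamini-Hochberg adjusted p = 0.201), which did not pass the threshold of 0.05. With passage as a block, which compares cells of the same passage, the estimate was -2.40, and -2.57 to -2.31 when 1 of the 6 libraries was left out. No gene of the 5 was called by edgeR on group alone, where 5.21% of all genes were called. An unadjusted p under 0.05 was found for 3 of them (Psca, Ly6a and Ly6c1), and DESeq2 on group alone called 1, Ly6a.

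Ly6a had 2214, 2236 and 1971 CPM in untreated cells at passages 5, 6 and 10, and 1583, 1242 and 1376 CPM in Rspo1-positive cells. The 2 groups do not overlap, as for 11.8% of all genes in this direction. Its log2 change was -0.61 (SE 0.19, edgeR adjusted p = 0.1005), and with the passage block Ly6a fell by 0.62 (SE 0.16, adjusted p = 0.0264). Ly6c1 had 206, 174 and 173 CPM in untreated cells and 163, 101 and 130 CPM in Rspo1-positive cells, also without overlap. Its log2 change was -0.49 (SE 0.21, edgeR adjusted p = 0.251), and -0.51 with the block (SE 0.13, adjusted p = 0.0216). These blocked calls of Ly6a and Ly6c1 were lost without any 1 of the 3 Rspo1-positive libraries, and that of Ly6a also without the untreated library of passage 5 (edgeR adjusted p from 0.0557 to 0.161).

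Ly6d and Ly6e did not pass in either fit. The log2 change of Ly6d was -0.33 (SE 0.26, edgeR adjusted p = 0.606), with -0.83 at passage 6 and -0.05 at passage 10. That of Ly6e was -0.27 (SE 0.18, edgeR adjusted p = 0.490), with a 95% interval of -0.66 to 0.12. All 5 genes were lower in Rspo1-positive than in untreated cells at 3 of 3 passages, as were 24% of all genes. With the block Ly6a and Ly6c1 were called lower and Ly6d and Ly6e were not, against 6.77% of all genes called lower. Psca is left out here, since its blocked p-value is partly set by its choice.

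The second comparison sets tdTom-positive against tdTom-negative cells of Rspo1-treated organoids, which shared a culture treatment and differed in reporter state. Ly6c1 was the 1 gene of the 5 called on group alone, where 24.3% of all genes were called. Its level was 273, 171 and 215 CPM in Rspo1-negative cells at passages 5, 6 and 10, against 163, 101 and 130 CPM in Rspo1-positive cells. The groups do not overlap, as for 20.6% of all genes in this direction, and the ratio was nearly the same at each passage (1.67-fold, 1.70-fold and 1.65-fold lower). Ly6c1 fell by 0.74 on the log2 scale (SE 0.21, edgeR adjusted p = 0.0270), and its adjusted p was 0.00157 with the block. The call on group alone was lost without any of 4 libraries (passages 5 and 10 of Rspo1-negative, passages 6 and 10 of Rspo1-positive cells) and after a correction for GC content and length (log2 change -0.63, adjusted p = 0.0788), whereas the blocked call held without each library in turn.

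Psca was 2.49-fold lower in the tdTom-positive cells at passage 5, 2.56-fold at passage 6 and 2.98-fold at passage 10. On group alone its log2 change was -1.38 (SE 0.91, edgeR adjusted p = 0.296), and with the block the estimate was -1.43. Ly6d had 1108, 670 and 1112 CPM in Rspo1-negative cells and 660, 386 and 739 CPM in Rspo1-positive cells. The groups overlap, with the Rspo1-positive cells of passage 10 above the Rspo1-negative cells of passage 6. Its log2 change was -0.69 (SE 0.26, edgeR adjusted p = 0.0750) on group alone, and Ly6d fell by 0.71 with the block (SE 0.17, adjusted p = 0.00732), a call lost without the Rspo1-negative library of passage 5 (adjusted p = 0.05002) and with a GC and length correction (log2 change -0.43, adjusted p = 0.0905).

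Ly6a stood at 2487, 1654 and 1942 CPM in Rspo1-negative cells, all above the 3 Rspo1-positive libraries. The log2 change was -0.53 (SE 0.19, edgeR adjusted p = 0.0611), and -0.52 with the block (SE 0.16, adjusted p = 0.0246), a call lost without any of 5 of the 6 libraries. Ly6e had 4604, 4129 and 4142 CPM in Rspo1-negative cells and 3454, 3501 and 3695 CPM in Rspo1-positive cells. These 2 sets do not overlap, but the difference is small: a log2 change of -0.27 (SE 0.18, edgeR adjusted p = 0.283), which turned to 0.01 after correction for GC content and length. All 5 genes were lower in Rspo1-positive cells at 3 of 3 passages, as were 33.5% of all genes. With the block Ly6a, Ly6c1 and Ly6d were called lower and Ly6e was not, against 17.4% of all genes called lower. Psca is left out here for the same reason as above.

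The last comparison sets tdTom-negative cells of Rspo1-treated organoids against untreated cells. The tdTom-positive cells of the treated organoids had been sorted away, so the treatment and their removal cannot be told apart here. None of the 5 genes was called on group alone (edgeR adjusted p from 0.339 to 0.996, with 0 of 5 at an unadjusted p under 0.05 and 0 called by DESeq2), while 21.9% of all genes were. Psca was 2.24-fold lower at passage 5, 2.296-fold at passage 6 and 1.44-fold at passage 10. Its log2 change was -1.04 (SE 0.89, edgeR adjusted p = 0.442) and turned to 0.29 without the untreated library of passage 5. With the passage block the estimate was -0.97. With the block Ly6a, Ly6c1, Ly6d and Ly6e were not called, against 35.5% of all genes called and 20% called lower. Psca is left out here, since its blocked p-value is partly set by its choice. For Ly6d the log2 change was 0.37 (SE 0.26, edgeR adjusted p = 0.339), for Ly6c1 0.25 (SE 0.21, adjusted p = 0.415), for Ly6a -0.08 (SE 0.19, adjusted p = 0.804) and for Ly6e 0.00 (SE 0.18, adjusted p = 0.996). The 95% interval of Ly6e, -0.39 to 0.39, leaves room for a change of that size either way.

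**Figure D3:**
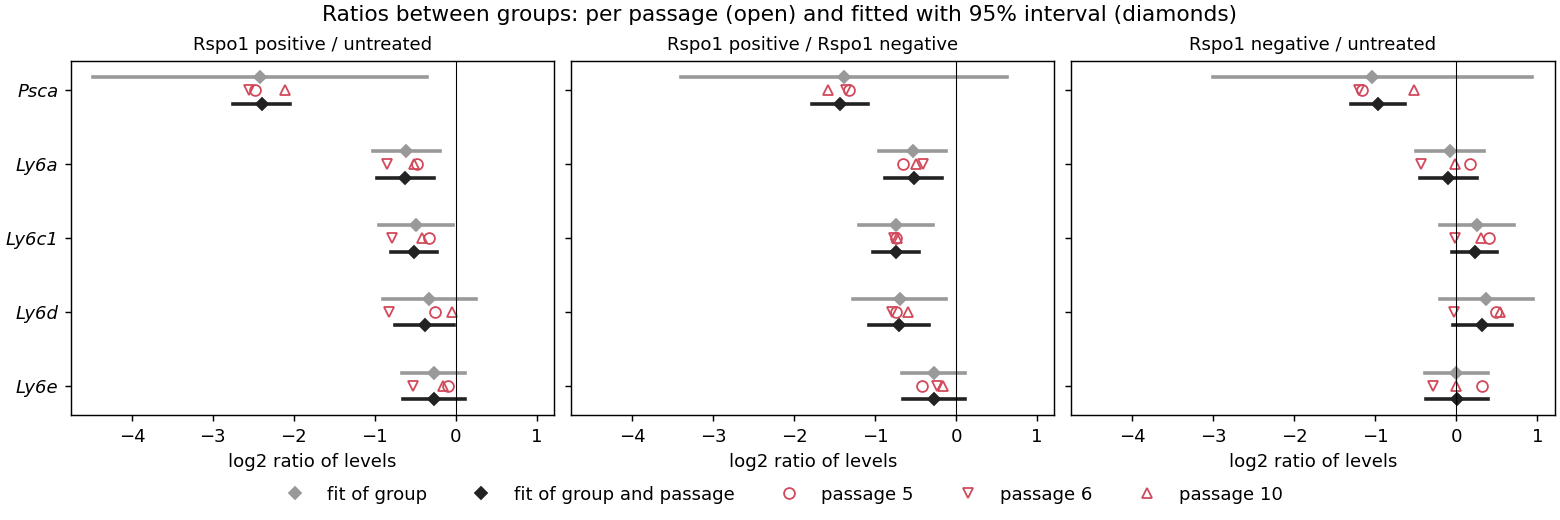
Log2 ratio of levels between groups for each gene. Open symbols are the ratios at passages 5, 6 and 10, and diamonds with bars are edgeR estimates with 95% intervals from the fit of group (grey) and of group and passage (black). For Psca the 3 passage ratios lie close together, from -2.55 to -2.10 in Rspo1-positive against untreated cells, and the interval on group alone runs from -4.48 to -0.35. The narrower black intervals of Psca draw on the spread by which it was chosen.

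The authors' deposited table for Rspo1-positive against untreated cells gives Psca a log2 change of -2.38 (SE 0.179, adjusted p = 7.93e-38) and rank 48 of 15807 genes by p-value. For Rspo1-positive against Rspo1-negative cells the authors' deposited table gives Psca -1.45 (SE 0.178, adjusted p = 2.12e-14), and for Rspo1-negative against untreated cells -0.949 (SE 0.205, adjusted p = 4.98e-05). Refitting DESeq2 to the 6 libraries of each comparison with passage as a term gave standard errors for Psca of 0.179, 0.178 and 0.205, in the same order. Without passage they were 1.11, 1.08 and 1.09. The deposited standard errors of Psca thus match those of the refits with passage. The limit on blocked p-values of Psca holds for the deposited p-values and rank of Psca, and for these refits, too. Ly6e, not called in either edgeR fit, has a log2 change of -0.294 (SE 0.116, adjusted p = 0.0273) in the authors' deposited table for Rspo1-positive against Rspo1-negative cells.

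Ly6c1 has close relatives in the cluster whose transcripts were nearly absent. Ly6c2 reached at most 8 counts in a library and Ly6g at most 3, against 2985 to 10239 for Ly6c1. Of all stretches of 75 bases in Ly6c1 transcripts, the read length used, 19.05% also occur in Ly6a or Ly6c2, and 6.33% of those in Ly6a also occur in Ly6c1 or Ly6i, so a part of the reads of these genes could be assigned to a relative or dropped. Psca, Ly6d and Ly6e share none. Among the 5 genes the RefSeq promoter table (GRCm38.p6) holds Ly6c1. The table gives 2 start sites each for Ly6c1, Ly6c2 and Ly6g. The 250 bases before 1 of them are shown for Ly6c1 (chr15:75048838-75049087, minus strand), Ly6c2 (chr15:75111972-75112221, minus strand) and Ly6g (chr15:75155079-75155328, plus strand), since 1 of these 3 alike promoters belongs to a gene with many reads and 2 to genes with almost none. Capitals mark the TATA box letters TATAAA, searched on both strands.
Ly6c1: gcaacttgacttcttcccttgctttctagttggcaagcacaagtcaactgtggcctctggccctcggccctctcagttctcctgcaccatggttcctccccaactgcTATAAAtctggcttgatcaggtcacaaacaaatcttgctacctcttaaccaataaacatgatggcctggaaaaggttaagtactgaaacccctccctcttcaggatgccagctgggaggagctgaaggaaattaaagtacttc
Ly6c2: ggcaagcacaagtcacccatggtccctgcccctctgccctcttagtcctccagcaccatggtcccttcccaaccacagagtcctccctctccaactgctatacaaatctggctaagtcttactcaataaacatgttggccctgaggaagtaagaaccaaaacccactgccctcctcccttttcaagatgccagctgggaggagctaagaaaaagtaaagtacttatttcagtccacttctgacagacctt
Ly6g: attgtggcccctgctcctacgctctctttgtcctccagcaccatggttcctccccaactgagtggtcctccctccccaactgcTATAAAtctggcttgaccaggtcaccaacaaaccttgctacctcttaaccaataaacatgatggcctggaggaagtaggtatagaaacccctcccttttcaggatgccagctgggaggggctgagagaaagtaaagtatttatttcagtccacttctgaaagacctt

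The Ly6c1 and Ly6g windows shown were identical at 89.7% of 156 aligned positions, and those of Ly6c1 and Ly6c2 at 73.6% of 231. The alignments differ in length: the window at the other Ly6g start matched the Ly6c1 window shown at 75.8% of 231 positions. TATAAA was found 143 bases before the Ly6c1 start and 167 before the Ly6g start used here, and not in the Ly6c2 window. At the other starts it lay 99 bases before that of Ly6g and was in neither the Ly6c1 nor the Ly6c2 window. It occurs in 12.4% of 32851 promoter windows of this length. The letters CCAAT, searched in the same way, lay 95 and 119 bases before the Ly6c1 and Ly6g starts used here, and occur in 33.8% of windows.

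Of the 37 genes on the wider Ly6/uPAR list, 34 were in the files and 28 were tested, the 5 genes above included. In Rspo1-positive against Rspo1-negative cells 4 were called lower and 0 higher on group alone, Ly6c1, Lynx1, Lypd3 and Ly6g6d, while 9.78% of all genes were called lower. The Lynx1 level was 148 ± 21.1 CPM (SD, n = 3) with the reporter off and 82.7 ± 17.9 CPM with it on, and Lynx1 fell by 0.84 on the log2 scale (edgeR adjusted p = 0.00882). Lypd3, a gene of stratified epithelium measured at under 0.52 FPKM here, fell by 1.10 (adjusted p = 0.0441), and Ly6g6d by 0.97 (adjusted p = 0.0325). Ly6g6d overlaps Ly6g6e on the other strand over 19.54% of its exon bases. Without a stated strand setting, reads from that part cannot be told apart. With the block 9 of 28 were called lower and 0 higher, against 17.4% of all genes lower. Psca, whose blocked p-value is partly set by its choice, is among the 9. The median log2 change of the 28 was -0.43, against 0.03 over all 17011 genes.

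Against untreated cells, 0 of the 28 were called in Rspo1-positive cells by edgeR on group alone (6 had an unadjusted p under 0.05, all lower, and DESeq2 called 3), and 8 were called lower and 0 higher with the block, against 6.77% of all genes lower. The 8 include Psca, whose blocked p-value is partly set by its choice, as well as Ly6a and Ly6c1. Also among them were Lynx1 (log2 change -0.64, edgeR adjusted p with the block = 0.00546) and Plaur, the urokinase receptor (-0.45, adjusted p with the block = 0.0172). On group alone the adjusted p of Lynx1 and Plaur was 0.0748 and 0.536. The median of the 28 was -0.34, against -0.01 over all genes. Between Rspo1-negative and untreated cells edgeR called 0 on group alone (2 had an unadjusted p under 0.05, and DESeq2 called 1). With the block, under which 35.5% of all genes were called, Ly6g6d was called higher. Psca was called lower there, with a p-value partly set by its choice. The median of the 28 was 0.13 on group alone, against -0.02 over all genes, and 0.14 against -0.01 with the block.

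On group alone, other genes in and around the Ly6 cluster were called about as often as all genes when both directions are counted. Where any were called, all went the same way within a comparison. Of 13 tested neighbours 3 were called lower in tdTom-positive than in tdTom-negative cells under Rspo1 (24.3% of all genes were called, 9.78% lower). They were Them6 (log2 change -0.74, edgeR adjusted p = 0.0318), Eef1d, a translation elongation factor subunit (-0.64, adjusted p = 0.0199), and Pycrl (-0.63, adjusted p = 0.00841). With the block 7 were lower and 1 higher, against 38.9% of all genes called and 17.4% called lower. Rspo1-negative against untreated cells had 3 called higher and 0 lower (7 and 0 with the block), against 21.9% and 35.5% of all genes, and Rspo1-positive against untreated cells had 0 called by edgeR on group alone (4 at an unadjusted p under 0.05, 1 by DESeq2, 3 with the block, against 13.2% of all genes). The median log2 changes of the 13 were -0.52, 0.53 and 0.04 in that order of comparisons, against 0.03, -0.02 and -0.01 over all genes. Them6, which lies next to Psca inside the cluster, overlaps Slurp1 on the other strand.

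Genes for making and attaching the GPI anchor were called in both directions. Of 26 tested, edgeR called 0 in Rspo1-positive against untreated cells in either fit, and DESeq2 called 0 (1 had an unadjusted p under 0.05). Their median log2 change was -0.13. Within Rspo1-treated organoids 3 were called higher and 2 lower on group alone (7 and 4 with the block), against 24.3% and 38.9% of all genes. Among them were Pgap1, which trims the anchor (1.17, edgeR adjusted p = 0.00864), and Dpm3, a subunit of the dolichol-phosphate mannose synthase (-0.83, adjusted p = 0.0108). Between Rspo1-negative and untreated cells 6 were called lower and 2 higher (7 and 3 with the block), against 21.9% and 35.5% of all genes, and Pgap1 fell most of the 26, by 1.47 (adjusted p = 0.00333). The median of the 26 was -0.02 there, as over all genes. Interferon response genes, listed because Ly6e and Ly6a can respond to interferon, gave 1 called higher and 0 lower of 22 in Rspo1-positive against untreated cells, near the 5.21% of all genes called: Ifitm3, an inhibitor of virus entry (1.65, edgeR adjusted p = 0.0124). With the block 2 were called higher and 0 lower in that comparison, against 13.2% of all genes called. Within Rspo1-treated organoids 1 was called in each direction (2 higher and 3 lower with the block), against 24.3% and 38.9% of all genes. Between Rspo1-negative and untreated cells 2 were called higher and 1 lower (5 and 1 with the block), against 21.9% and 35.5% of all genes. Isg15 stayed at 0.802 to 1.96 FPKM, and Irf1 at 14.4 to 24.9 FPKM.

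Some markers of other epithelia that make Psca or Ly6d were called lower in Rspo1-positive than in untreated cells, where 5.21% of all genes were called and 2.13% called lower. The summed FPKM of 15 gastric mucous genes was 2945 to 3759 in untreated, 1781 to 2399 in Rspo1-negative and 881 to 1287 in Rspo1-positive cells, with no overlap. Of the 12 tested, 4 were called lower and 1 higher in Rspo1-positive against untreated cells on group alone. Among the lower ones were Tff3 (log2 change -4.11, edgeR adjusted p = 0.00171) and Tff2 (-2.07, adjusted p = 0.00171), secreted trefoil peptides of mucus, and the higher one was Pgc, a pepsinogen (2.67, adjusted p = 0.0242). Against Rspo1-negative cells, where 24.3% of all genes were called and 9.78% called lower, 3 of 12 were called lower and 0 higher. With the block 5 of the 12 were called lower and 2 higher against untreated cells, and 5 and 0 against Rspo1-negative cells. The shares of all genes called lower with the block were 6.77% and 17.4%. Squamous and basal genes summed to 233 to 496, 104 to 211 and 93.7 to 140.0 FPKM in the same order of groups. Of the 10 tested, 2 were called lower, Sprr1a (-1.75, adjusted p = 0.0203) and Ivl (-2.08, adjusted p = 0.0361), both of the cornified envelope, and against Rspo1-negative cells edgeR called 0 on group alone (2 had an unadjusted p under 0.05, 1 was called by DESeq2 and 2 with the block). Of 7 tested urothelial and prostate genes, 2 were called lower, Upk3bl (-1.43, adjusted p = 0.0203) and Tspan8 (-0.999, adjusted p = 0.0413), and 1 of 7 against Rspo1-negative cells (9.78% of all genes were lower there). With the block 5 of the 10 squamous and basal genes were called lower against untreated cells. For the 7 urothelial and prostate genes the blocked counts were 3 lower against untreated and 2 lower against Rspo1-negative cells. Their part in the level of Psca was not tested.

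The genes most like Psca were ranked by the Pearson correlation of log2 CPM over the 9 libraries, among 11660 genes with a mean above 2. These 9 points share passages, groups and 1 animal, so the values describe likeness in these libraries and carry no test. First came 2010109I03Rik (r = 0.976), which RefSeq calls Ly6m and which lies in the same cluster, between Ly6d and Ly6e, with its left end 162.1 kb from that of Psca. It had 19.0, 4.88 and 6.36 CPM in untreated cells at passages 5, 6 and 10, and 13.6, 2.88 and 4.74 CPM in Rspo1-negative cells. In Rspo1-positive cells it had 6.62, 0.607 and 2.21 CPM, the lowest from 18 reads. Like Psca it was lowest at passage 6 in every group, with a mean log2 ratio of passage 6 to 5 of -2.50 (from -3.32 to -1.95). None of Ly6a, Ly6c1, Ly6d and Ly6e was among the 6 genes most like Psca. Their r with Psca was 0.843, 0.816, 0.649 and 0.238, in that order.

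Next were Tsku, a secreted proteoglycan (r = 0.973), the homeobox gene Lhx6 (0.957), the mitochondrial aspartate-glutamate carrier Slc25a13 (0.955), Ergic1 (0.954) and carboxypeptidase E, Cpe (0.949). Their swings were smaller than that of Psca, with mean log2 ratios of passage 6 to 5 of -1.14 for Tsku, -1.001 for Lhx6 and -0.36 for Ergic1. For Ly6a the 3 most like genes were Lefty1 (r = 0.978), Gm45767 (0.9754) and Pllp (0.9753), and for Ly6c1 Gm11110 (0.987), Tmem141 (0.979) and Cndp2 (0.973). Those of Ly6d were Fstl4 (0.978), Fbxo44 (0.950) and Calr3 (0.950), and those of Ly6e were Tes (0.951), Ccndbp1 (0.947) and Gid8 (0.938).

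**Figure D4:**
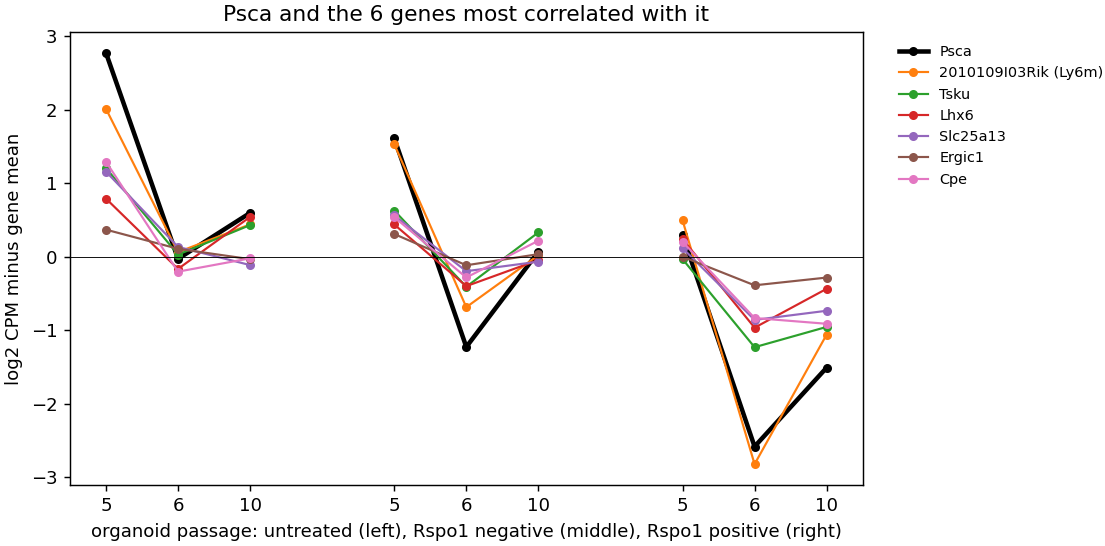
Log2 CPM minus each gene's mean over the 9 libraries, for Psca (black) and the 6 genes most correlated with it, by group (left to right) and passage. Psca and Ly6m swing most, with passage 6 to 5 log2 ratios averaging -2.84 and -2.50, and Ergic1 least (-0.36).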

How the data were processed

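RNA sequencing of 9 libraries was used; the submitters' processing notes name Trimmomatic 0.35, FastQC 0.11.2, STAR 2.5.1b, featureCounts, DESeq2 and GRCm38, without role or order. Per the file headers, the authors deposited raw counts and FPKM values per gene in each library. Per the file headers, the authors' deposited comparison tables hold, for 15807 genes, a log2 fold change, its standard error and a p-value before and after adjustment. Strand setting and model formula are not given in the sources used here.

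Tests on the counts used edgeR 4.0.16 in R 4.3.3 (filterByExpr, minimum count 10, minimum total 15, TMM scaling, quasi-likelihood F-test on group over 9 libraries, Benjamini-Hochberg adjustment over 17011 genes, threshold 0.05). SE is the log2 change over the square root of F. DESeq2 1.42.0 served as an alternative, and figures used Python 3.11.15. CPM uses TMM-scaled library sizes, and log2 CPM a prior count of 2. FPKM entered no test. The scripts were tested on simulated data. Replicates of a group differed far beyond counting noise, with a chi-square per gene of 53.3 to 486.

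Equal replicate numbers are equal passages, per the labels. After removal of group means, libraries of 1 passage correlated at 0.123 to 0.573 in 9 of 9 pairs, and the other 18 pairs at -0.476 to 0.0826, so passage pairs the libraries. Blocked values stand beside results whose call they change, for Psca without an edgeR p-value.

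The 5 genes, the gene lists and the tests were chosen with earlier results of these data known. Named genes are the 5, genes of the Ly6/uPAR and neighbour lists that were called or most abundant, up to 4 genes of every other list by level or p-value, and the genes most correlated with each of the 5 (6 for Psca, 3 for the others).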

Additional observations from a re-analysis of the deposited data

Results flagged for a closer look

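Both Rspo1-treated groups share the untreated control, so the difference between their changes against that control equals the direct contrast of the 2 groups. For Ly6c1 this difference passed the threshold on group alone, with a log2 value of -0.741 (edgeR adjusted p = 0.0270). Ly6c1 was lower in tdTom-positive cells at 3 of 3 passages. Against untreated cells its log2 change was -0.49 in tdTom-positive and 0.25 in tdTom-negative cells, and neither passed the threshold on its own.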

How the results depend on the processing

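The counts of called genes changed with the setting more than the directions did. Passage as a replicate block raised the genes called from 886 to 2247 (Rspo1-positive against untreated), from 4141 to 6624 (Rspo1-positive against Rspo1-negative) and from 3724 to 6039 (Rspo1-negative against untreated), and those of the 5 from 0, 1 and 0 to 3, 4 and 1. These blocked counts of the 5, and those below, include Psca, whose blocked p-value is partly set by its choice. The block changed no other call among the 5. Chosen after seeing the data, the block on the 6 libraries of a comparison called 2, 4 and 1 of the 5 (1915 and 7865 genes in the first and second), and DESeq2 with the block 3, 4 and 1 (2504, 6629 and 6117 genes). The block with the GC and length offset called 3, 3 and 1 of the 5 (2751 genes in the first).

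Without a block, in the first comparison DESeq2 called 1 of the 5 and 1506 genes, and no filter on low counts 1 and 1446. In the second, DESeq2 called 3 of the 5, no filter 3, upper-quartile scaling 2 and the GC and length offset 0 (1436 genes). In the third, that offset called 1329 genes and a fit of the 6 libraries 2234.

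Leaving out 1 library at a time, with or without the block, gave 0 to 3 of the 5 and 384 to 2150 genes, 0 to 4 and 2109 to 7023, and 0 to 3 and 1935 to 7385. The lowest counts came without the block and without the Rspo1-positive library of passage 6, the Rspo1-positive library of passage 5 and the Rspo1-negative library of passage 10, respectively. Where an arm is left with 2 libraries the spread is pooled over all groups.

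Directions turned in small or uncalled changes. Ly6e in Rspo1-positive against Rspo1-negative cells became 0.00976 with the offset and 0.0106 with block and offset, and in Rspo1-negative against untreated cells -0.309 and -0.299. In the latter comparison, leaving out 1 library gave ranges of -2.08 to 0.285 for Psca (reversed without the untreated library of passage 5), -0.251 to 0.0824 for Ly6a and -0.111 to 0.155 for Ly6e. Causes were not tested. The lowest count of the 5 genes in a library was 68.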
